A study of Rattus norvegicus with 10 samples.

Results

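The mRNAs described here encode 8 proteins of GABA and glycine inhibitory transmission in the rat lumbar spinal cord. They were chosen by name, as the probes whose RefSeq mRNA accession belongs to Gad1, Gad2, Slc32a1, Slc6a5, Glra1, Glrb, Gabra2 or Gabbr1, out of 15313 mRNA accessions on the array. Each of the 8 genes had 1 accession with 1 spot per array, and that spot was well above background on 10 of 10 arrays and never saturated. All 8 therefore stood among the 13373 mRNAs that passed the filter on dim probes.

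Total RNA came from the lumbar enlargements of 10 adult male Sprague Dawley rats weighing 240 to 260 g, with 1 rat per one-colour array. The 5 rats of the morphine tolerance group (MT, numbered 1 to 5) had received 10 μg of morphine in 10 μl intrathecally, 2 times daily over 7 days. The 5 rats of the normal saline group (NS, numbered 6 to 10) had received 10 μl of normal saline on the same schedule, so that both groups carried the intrathecal procedure. Tissue was taken on the following day, 1 hour after a further morning dose of morphine or saline. An acute effect of that last dose and an effect of the repeated doses therefore cannot be told apart. The question was whether mRNA levels of the inhibitory synapse differed between MT and NS rats. Levels are quantile-normalized log2 intensities, on which a difference of 1 is a doubling, and differences are MT minus NS.

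GABA and glycine are the fast inhibitory transmitters of the spinal cord, and many dorsal horn interneurons release both from the same terminals. Glutamate decarboxylases make GABA, the plasma membrane transporter encoded by Slc6a5 (GlyT2) supplies glycine to the terminal, and a shared vesicular transporter encoded by Slc32a1 (VGAT) loads both into vesicles. On the target cell, GABA-A and glycine receptors open chloride channels and GABA-B receptors act through G proteins. Loss of this inhibition in the dorsal horn is a known route to heightened pain.

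Of these 8 mRNAs, the one for the glycine receptor α1 subunit, Glra1, was 1.48-fold higher in the MT group (95% confidence interval 1.12 to 1.96), and its values in all MT rats exceeded those in all NS rats. For the other 7, the MT over NS ratio lay between 0.901 for Slc6a5 and 1.11 for Gabra2, and the groups overlapped. None of the 8 passed an adjusted p of 0.05 (limma, Benjamini-Hochberg over 20284 RNAs), a threshold passed by 0.232% of all mRNAs. None met the study's screening criteria, read on the linear scale (1.5-fold and an unadjusted P of less than 0.05), against 2.6% of all mRNAs. Glra1 was the 1 member of 8 with an unadjusted P below 0.05, where 16.8% of all mRNAs had one, 6.37% higher and 10.4% lower in MT. The median difference of the 8 mRNAs was 0.00, beside -0.02 over all mRNAs tested, and 4 of the 8 values were above 0.

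**Figure D1:**
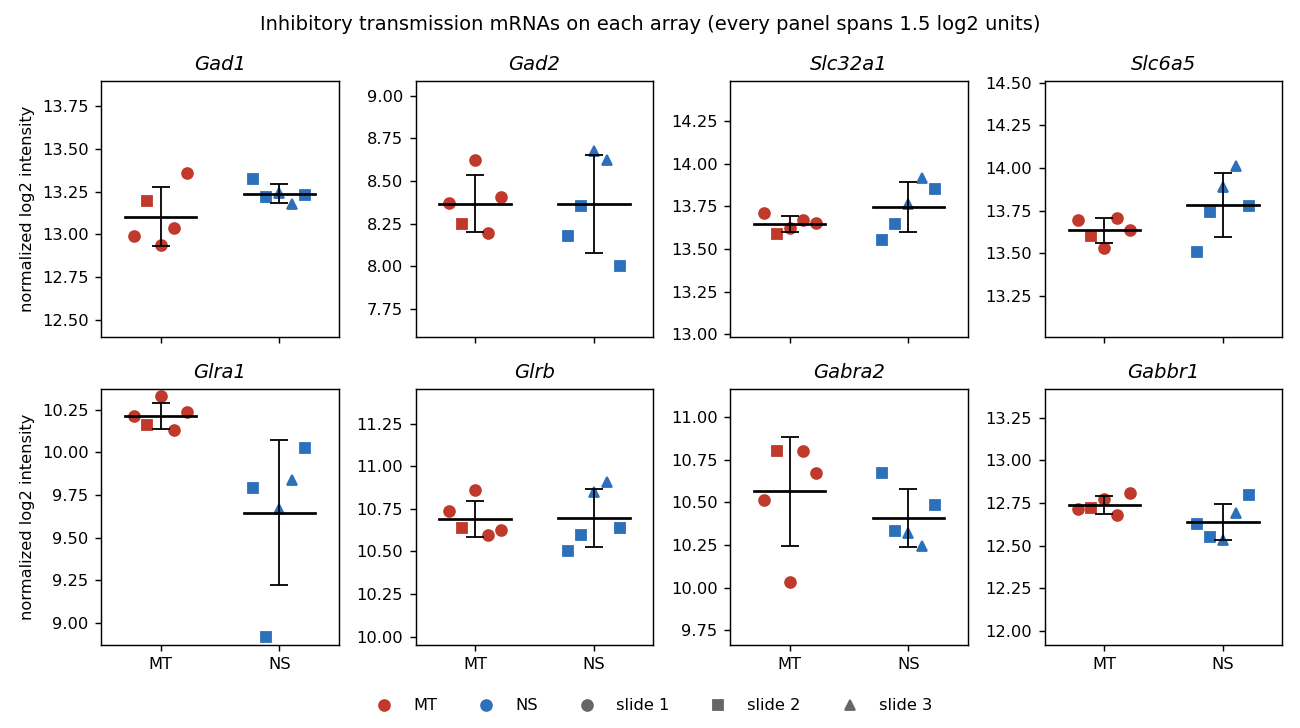
Normalized log2 intensity of the 8 inhibitory transmission mRNAs in the MT (red) and NS (blue) rats, 1 point per array, with marker shapes for the slides, a line at the group mean and bars of 1 SD (n = 5). Every panel spans 1.5 log2 units. The Glra1 panel is the one in which all MT points lie above all NS points, with NS rat 7 at 8.92 far below the rest.

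The arrays came from 3 slides, a slide being the set of arrays whose file headers give the same scan time. MT rats 1, 3, 4 and 5 were on slide 1, slide 2 carried MT rat 2 beside NS rats 6, 7 and 10, and slide 3 carried NS rats 8 and 9. Slide 3 had the weakest signal, with 58.6% and 63.8% of spots well above background against 77.4% to 83.9% on the other arrays. Group and slide therefore cannot be told apart on slides 1 and 3, and slide 2 holds the 1 comparison of both groups with a shared scan time. No slide barcode was available to check this grouping. Arrays correlated with r between 0.973 and 0.997, and 0 arrays held identical values. Of the neuron, astrocyte and oligodendrocyte marker lists, 11, 7 and 10 genes passed the filter, and none that was matched failed it. Of 5 cerebellum and brainstem markers, Neurod1, Pcp2 and Calb1 passed it and Gabra6 and Cbln1 did not.

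Glra1 (NM_013133.1, chr10:40128284-40228612 in GRCr8) encodes the ligand-binding α1 subunit of the adult glycine receptor. Its level was 10.21, 10.16, 10.33, 10.13 and 10.24 in MT rats 1 to 5, and 9.79, 8.92, 9.67, 9.84 and 10.02 in NS rats 6 to 10. The MT rats thus lay within a narrow band, while the NS rats were spread out, with NS rat 7 lowest and NS rat 10 close to the MT range. The group means were 10.21 ± 0.08 and 9.65 ± 0.43 (SD, n = 5 each), a difference of 0.57 with a standard error of 0.18. The unadjusted P was 0.0107 and the adjusted p was 0.185 in limma, while the exact two-sided permutation test gave 0.00794, the smallest value that 5 against 5 rats allow. Here and below, that test exchanged rats without regard to slide, so its p does not allow for the slides. A complete separation of this kind, with MT higher, occurred in 2.3% of all mRNAs, and with MT lower in 3.48%. On the scale of the deposited processed intensities, before normalization between arrays, Glra1 spanned 1233 to 1419 among MT rats and 505 to 1206 among NS rats. The arrays of NS rats 8 and 9 were dimmer overall (median intensity 42.1 and 29.8, against 74.4 to 101 on the others), so their low raw values are no separate evidence on Glra1.

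The size of the Glra1 difference depended on NS rat 7. Without that rat the difference was 0.38, with an unadjusted P of 0.00161 and an adjusted p of 0.136 in limma. Leaving out NS rat 10 gave 0.66. On slide 2 alone, MT rat 2 was 0.58 above the mean of the 3 NS rats. NS rat 7 is on that slide, and the other 2 NS rats there read 9.79 and 10.02 against 10.16 for MT rat 2. With the slide as a fixed block the difference was 0.58 but its unadjusted P was 0.136, and with the slide as a random block it was 0.56 with an unadjusted P of 0.0485 and an adjusted p of 0.709 in limma. Without NS rats 8 and 9 of slide 3 the difference was 0.64, which exceeds 1.5-fold.

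**Figure D2:**
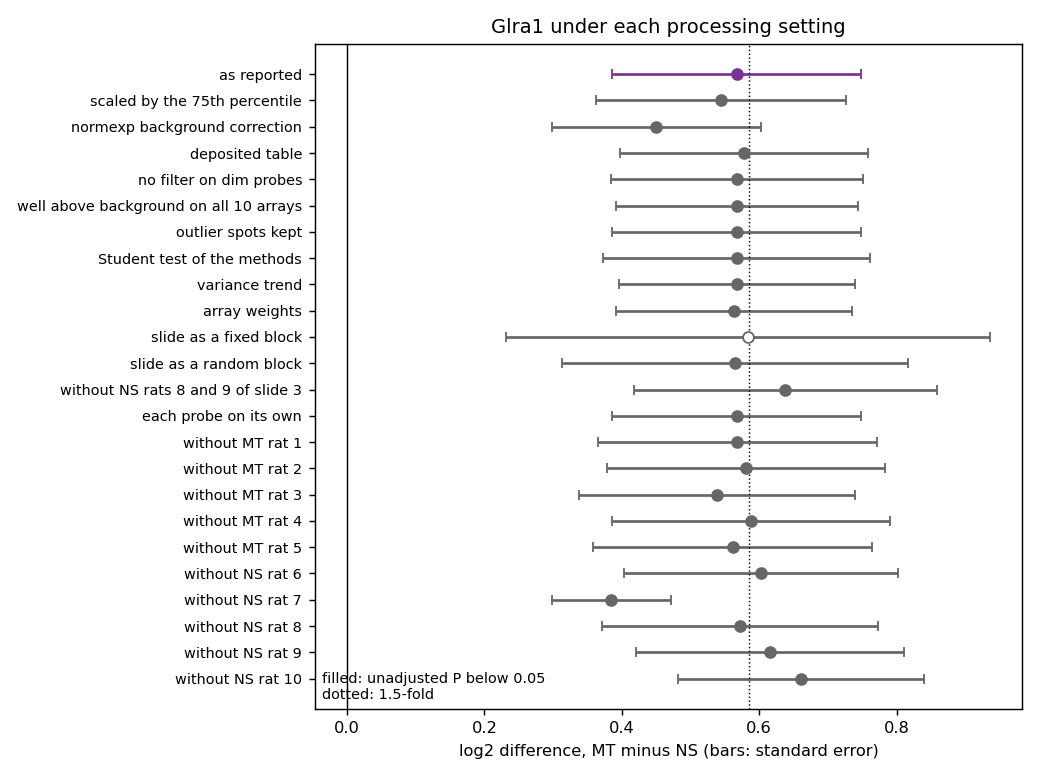
Difference of Glra1 between the MT and NS groups on the log2 scale, with standard error bars, as reported and under 23 other settings. The lowest point is 0.38 (NS rat 7 left out) and the highest 0.66 (NS rat 10 left out), all are above 0, and the open point, with the slide as a fixed block, has an unadjusted P of 0.136.

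General neuron markers had differences above 0, as Glra1 did, for 11 of 13 mRNAs, where 6260 of all 13373 mRNAs were above 0. Of the 13, 6 had an unadjusted P below 0.05, all of them higher in MT, against 6.37% of all mRNAs, and none passed the adjusted threshold. The 13 mRNAs were entries of 11 genes, with Map2 and Syn1 repeated, and the 6 include Map2 more than 1 time. The median neuron difference was 0.19. The mean level of the list, centred on each mRNA's own mean, was 0.02 to 0.17 in MT rats and -0.23 to -0.02 in NS rats, with no overlap and with NS rat 7 lowest, as for Glra1. Motor neuron mRNAs had a median difference of 0.29, but 0 of 4 had an unadjusted P below 0.05. Chat and Mnx1, which define motor neurons, had no matched probe. Among excitatory neuron markers 0 of 9 mRNAs, entries of 6 genes with Tac1 repeated, were below that P, with a median of 0.09. That median is the value of a Tac1 entry, and every Tac1 entry was above 0, which raises it. Lmx1b and Tlx3 had no matched probe, and Slc17a7 did not pass the filter. Of 9 microglia mRNAs 6 were lower at that threshold, against 10.4% of all mRNAs (median -0.34, none past the adjusted p). Of 6 neutrophil mRNAs 3 were higher, against 6.37% (median 0.64, none past the adjusted p). That median lies between Ngp and Cxcr2, which were dim. They cleared background on 4 MT and 1 NS arrays and on 5 MT and 2 NS arrays. Ltf and Mmp8 did not pass the filter, and S100a9, Mpo and Elane had no matched probe. Astrocyte and oligodendrocyte lists had medians of -0.06 and 0.02. In them 2 of 9 and 2 of 15 mRNAs were lower at that threshold, against 10.4% of all mRNAs, and 0 were higher. The 15 oligodendrocyte mRNAs were accessions of 10 genes, with Mbp entered repeatedly and above 0 each time, which raises that median. In whole tissue, a different number of neurons and a different amount of RNA per neuron cannot be told apart, and the part of cell composition in the Glra1 difference was not tested.

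**Figure D3:**
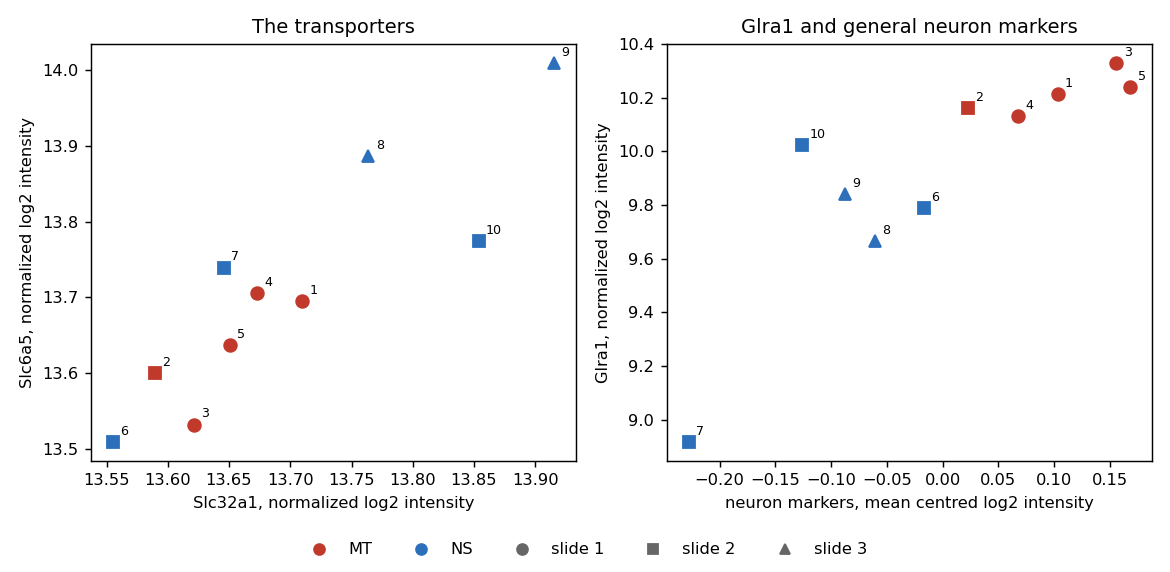
Left, Slc6a5 against Slc32a1, and right, Glra1 against the mean centred level of general neuron markers, all on the normalized log2 scale with 1 point per rat, numbered by rat, coloured by group and shaped by slide. The transporter points run from NS rat 6 at the lower left to NS rat 9 at the upper right, and in the right panel the MT rats occupy the upper right and NS rat 7 the lower left.

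Glrb (NM_053296.1, chr2:168432736-168505614) encodes the β subunit, which joins α1 in the synaptic glycine receptor and binds the scaffold protein gephyrin. It did not share the separation of its partner. Its level was 10.74, 10.64, 10.86, 10.60 and 10.62 in the MT rats and 10.50, 10.59, 10.85, 10.90 and 10.63 in the NS rats. The highest values were those of MT rat 3 and the NS rats 8 and 9, and the groups overlapped over most of their range. The difference was -0.01 (SE 0.09, 95% interval -0.22 to 0.21, exact permutation p = 0.952), with a 95% interval of the ratio from 0.860 to 1.15. The values of the other α subunits lay on the opposite side of 0 from Glra1. Glra2, the α2 subunit typical of the immature cord, was at 8.50 to 9.50 in MT rats and 9.47 to 9.60 in NS rats, with a difference of -0.38 (SE 0.17, unadjusted P = 0.0474, adjusted p = 0.301 in limma). MT rat 3 was far the lowest for Glra2, and without it the difference was -0.21, while with the slide as a fixed block it was -0.14 with an unadjusted P of 0.672 in limma. Glra3, the α3 subunit found in the superficial dorsal horn, differed by -0.36 (unadjusted P = 0.182 in limma) at a dim level that cleared background on 4 MT and 1 NS of the 5 arrays each. Scaling by the 75th percentile turned the Glra3 value to 0.10. All 4 glycine receptor genes were tested, and none passed the adjusted threshold. At an unadjusted P below 0.05, 1 was higher and 1 lower, where 6.37% of all mRNAs were higher and 10.4% lower.

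Gad1 (NM_017007.1, chr3:75777260-75818099) encodes GAD67, the decarboxylase that makes most GABA in the cell body. Its level was 12.99, 13.20, 12.94, 13.04 and 13.36 in the MT rats and 13.33, 13.22, 13.24, 13.18 and 13.23 in the NS rats. The NS rats agreed closely (SD 0.06) and the MT rats were wider (SD 0.17), with 3 MT rats below every NS rat and 1, rat 5, above all of them. The difference was -0.13 (SE 0.09, 95% interval -0.33 to 0.06, exact permutation p = 0.135, adjusted p = 0.473 in limma). Without MT rat 5 it was -0.20, with an unadjusted P of 0.0275 and an adjusted p of 0.335 in limma. On slide 2 MT rat 2 was 0.06 below the mean of the NS rats.

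Gad2 (NM_012563.1, chr17:89671718-89734246) encodes GAD65, the form bound to synaptic vesicles. It read 8.37, 8.25, 8.62, 8.19 and 8.41 in the MT rats and 8.18, 8.35, 8.67, 8.63 and 8.00 in the NS rats. The NS group held both the highest arrays, which were the pair on slide 3, and the lowest array, rat 10. The group difference was 0.00 (SE 0.14, 95% interval -0.31 to 0.32, exact permutation p = 0.992), with a 95% interval of the ratio from 0.804 to 1.25. Without NS rats 8 and 9 of slide 3 the difference was 0.19. The Gad1 and Gad2 values of the same rats correlated with r = -0.22 over 10 arrays and -0.44 over the 8 arrays of slides 1 and 2, given as a description of values that share array, slide and normalization. Abat, which breaks GABA down, differed by 0.14 with overlapping groups. Of 3 synthesis and breakdown mRNAs, 0 had an unadjusted P below 0.05, against 16.8% of all mRNAs.

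Slc32a1 (NM_031782.1, chr3:167687245-167691714) and Slc6a5 (NM_203334.1, chr1:108767245-108833173) encode the vesicular and the neuronal glycine transporter, which mark inhibitory terminals. Promoter windows of these genes are shown because the mRNA levels followed each other from rat to rat, with the highest correlation of any pair of members over the 10 arrays. Each is the 250 bases before the RefSeq start in GRCr8 on the + strand, Slc32a1 at chr3:167686995-167687244 and Slc6a5 at chr1:108781303-108781552, which lies inside the annotated span of that gene, and capitals mark CpG dinucleotides.
Slc32a1: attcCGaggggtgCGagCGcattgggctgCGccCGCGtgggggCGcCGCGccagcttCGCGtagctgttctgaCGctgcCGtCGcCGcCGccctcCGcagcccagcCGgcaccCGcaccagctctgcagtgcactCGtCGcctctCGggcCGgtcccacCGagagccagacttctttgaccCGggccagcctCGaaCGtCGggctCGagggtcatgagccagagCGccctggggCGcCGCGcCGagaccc
Slc6a5: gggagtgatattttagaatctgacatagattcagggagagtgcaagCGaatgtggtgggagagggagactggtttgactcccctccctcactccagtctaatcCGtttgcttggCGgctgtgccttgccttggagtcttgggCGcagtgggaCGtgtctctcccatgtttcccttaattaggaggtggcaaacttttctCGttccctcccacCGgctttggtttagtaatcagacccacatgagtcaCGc
The Slc32a1 window held 34 CpG dinucleotides, and 96.8% of 27457 promoter windows of the same length held fewer, where the median was 6. The Slc6a5 window held 8, and 56.0% held fewer. GC content was 73.6% and 52.4%. On either strand, the CCAAT box (CCAAT, in 34.3% of all windows) and the GC box (GGGCGG, in 32.4%) each occurred 1 time in the Slc32a1 window. Both occurred 0 times in the Slc6a5 window. The E-box (CANNTG, in 65.2%) occurred 0 times for Slc32a1 and 1 time for Slc6a5, and the TATA box (TATAAA, in 13.1%) in neither. None of these 4 motifs thus occurred in both windows. Of the other members with an entry, Gabbr1, Gad1, Gad2 and Glrb had 26, 23, 22 and 16 CpG dinucleotides, and Glra1 and Gabra2 had no entry.

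Slc32a1 read 13.71, 13.59, 13.62, 13.67 and 13.65 in the MT rats and 13.56, 13.65, 13.76, 13.92 and 13.85 in the NS rats. Slc6a5 read 13.69, 13.60, 13.53, 13.71 and 13.64 in the MT rats and 13.51, 13.74, 13.89, 14.01 and 13.77 in the NS rats. For both, NS rat 6 was the lowest and NS rat 9 the highest of all 10 rats, so that the MT range lay inside the NS range. The difference was -0.10 for Slc32a1 (SE 0.08, 95% interval -0.27 to 0.08, exact permutation p = 0.214) and -0.15 for Slc6a5 (SE 0.09, 95% interval -0.36 to 0.06, exact permutation p = 0.143). The adjusted p values were 0.559 and 0.451 in limma. Without the arrays of slide 3 the difference was -0.036 for Slc32a1 and -0.040 for Slc6a5, and with array weights it was -0.017 and -0.018. Without NS rat 9 it was -0.056 and -0.094. Without NS rat 6 the Slc6a5 difference was -0.22 with an unadjusted P of 0.0231 and an adjusted p of 0.233 in limma. The MT group was the tighter, with SDs of 0.05 and 0.07 against 0.15 and 0.19.

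The 2 transporters correlated with r = 0.89 over the 10 arrays and 0.80 without slide 3. Of the 13341 mRNAs with a value on every array, 0.142% had a higher r with Slc32a1 than Slc6a5 did. The 5 mRNAs of other genes with the highest r were Fzd9, a Wnt receptor, at 0.955, Mcee at 0.947, Sema3d, a secreted guidance protein, at 0.934, Cyp4f1 at 0.934 and Mfge8, a secreted phagocytosis adaptor, at 0.918. Without slide 3 their r ranged from 0.825 for Mfge8 to 0.940 for Mcee. Glrb followed Slc32a1 less closely, with r = 0.56 over the 10 arrays and 0.15 without slide 3. These are descriptions over 10 arrays that share slides and normalization.

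The transporters outside the list of 8 showed no value past an unadjusted P of 0.05. With the 2 members, 0 of 7 tested genes did, against 16.8% of all mRNAs, and the median was -0.10. Slc6a13, the GABA transporter GAT2 of meninges and other non-neuronal cells, differed by 0.25 (unadjusted P = 0.0648 in limma), with NS rat 6 the highest of all 10 rats. Slc6a9, the glial glycine transporter GlyT1, differed by -0.12, Slc6a12 by -0.23 and Slc6a11, the astrocytic GAT3, by 0.14. The Slc6a9 value was 0.01 without slide 3, and the Slc6a11 value turned to -0.17 with the slide as a fixed block.

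Gabra2 (NM_001135779.1, chr14:37451218-37587458) encodes an α subunit of synaptic GABA-A receptors that is prominent in the superficial dorsal horn. Its level was 10.51, 10.80, 10.03, 10.80 and 10.67 in the MT rats and 10.67, 10.33, 10.32, 10.24 and 10.48 in the NS rats. MT rats 2, 4 and 5 lay above every NS rat, MT rat 5 only just above NS rat 6, while MT rat 3 lay below all of them. The difference was 0.15 (SE 0.15, 95% interval -0.19 to 0.50, exact permutation p = 0.349, adjusted p = 0.636 in limma). Without MT rat 3 it was 0.29, with an unadjusted P of 0.0238 and an adjusted p of 0.268 in limma, and without NS rats 8 and 9 it was 0.07. MT rat 3 was also the lowest MT rat for Gad1, Slc6a5 and Glra2 and the highest for Gad2, Glra1 and Glrb.

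Among the GABA-A receptor genes, Gabra2 included, 14 of 18 matched genes were tested, with a median difference of 0.10. At an unadjusted P below 0.05, 1 was higher and 1 lower, where 6.37% of all mRNAs were higher and 10.4% lower. Gabra6, Gabrp, Gabrr1 and Gabrr3 did not pass the filter. Gabrr2 and Gabrg3 had the largest differences above 0 of the 14, at 0.98 and 0.78, which raises the median. Both were dim and cleared background on 5 MT and 3 NS arrays. Gabrd, the δ subunit of extrasynaptic receptors, differed by -0.49 (SE 0.18, unadjusted P = 0.0219, adjusted p = 0.236 in limma), and its highest values were those of NS rats 8 and 9 at 6.16 and 6.41. Without these rats the Gabrd difference was -0.28, with an unadjusted P of 0.134 in limma. Gabra3 differed by 0.20 and Gabrg1 by -0.20, with unadjusted P values of 0.0836 and 0.0710 in limma.

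Gabbr1 (NM_031028.3, chr20:1469779-1499352) encodes the GABA-binding subunit of the GABA-B receptor, the target of baclofen. It read 12.71, 12.72, 12.78, 12.68 and 12.81 in the MT rats and 12.63, 12.55, 12.53, 12.69 and 12.79 in the NS rats. NS rat 10 lay within the MT range at its upper end, and NS rats 6, 7 and 8 lay below every MT rat. The difference was 0.10 (SE 0.07, 95% interval -0.05 to 0.25, exact permutation p = 0.111, adjusted p = 0.498 in limma), with a 95% interval of the ratio from 0.963 to 1.19. Gabbr1 also had the smallest spread within groups of the 8 mRNAs, below that of all but 8.14% of mRNAs. Across the 10 rats it followed Glra1 with r = 0.79, and with 0.83 without slide 3. Gabbr2, the subunit that couples to the G protein, differed by 0.12 (unadjusted P = 0.193 in limma).

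**Figure D4:**
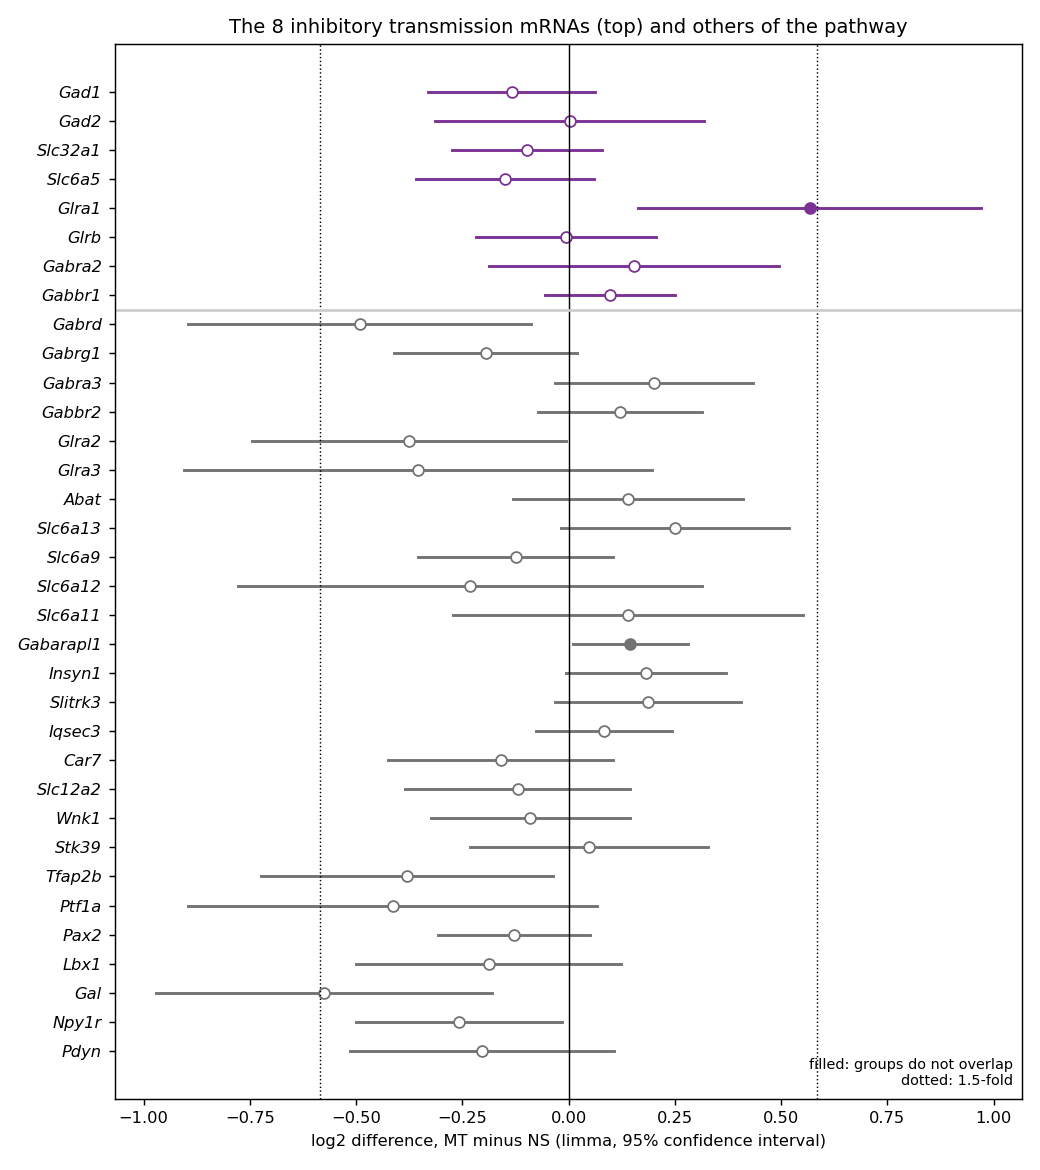
Difference between the MT and NS groups on the log2 scale with its 95% confidence interval from limma, for the 8 inhibitory transmission mRNAs (purple) and other mRNAs of the pathway (grey). Filled points mark complete separation of the groups, and dotted lines mark 1.5-fold. Glra1 and Gabarapl1 are filled and higher in MT, and no filled point shown is lower.

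The wider pathway held 56 further genes with 58 mRNAs tested. At an unadjusted P below 0.05, 2 were higher and 5 lower in MT, which is 12.1% and below the 16.8% of all mRNAs, and none passed the adjusted threshold or the study's criteria. Their median difference was -0.04. Complete separation occurred for 2 of the 58, among them Gabarapl1, while 5.79% of all mRNAs separated. Gabarapl1, a relative of the GABA-A receptor-associated protein, read 15.26 to 15.38 in MT and 15.08 to 15.25 in NS rats (difference 0.14, SE 0.06, unadjusted P = 0.0380, adjusted p = 0.281 in limma). It was the 1 of 16 scaffold mRNAs with an unadjusted P below 0.05, and Insyn1, Slitrk3 and Iqsec3, all of the inhibitory postsynapse, differed by 0.18, 0.19 and 0.08.

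The genes that set the chloride gradient gave 0 of 4 at an unadjusted P below 0.05, against 16.8% of all mRNAs. Their median was -0.11. Slc12a2, the chloride importer NKCC1, differed by -0.12, Car7 by -0.16 and the regulatory kinases Wnk1 and Stk39 by -0.09 and 0.05. Slc12a5, the chloride exporter KCC2, was not matched to a probe.

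Markers listed for dorsal horn interneurons had 3 of 9 differences above 0, where 6260 of all 13373 mRNAs were above 0. Whether these mRNAs came from inhibitory cells was not tested. Of these 9 dorsal horn interneuron marker mRNAs, 3 (Gal, Npy1r and Tfap2b, also counted below) were lower at an unadjusted P below 0.05, against 10.4% of all mRNAs, and none was higher, with a median difference of -0.17. Gal, the neuropeptide galanin, read 10.56, 10.38, 10.84, 10.27 and 10.51 in the MT rats and 10.47, 11.40, 11.09, 11.32 and 11.17 in the NS rats. NS rat 6 lay within the MT range, and the other 4 NS rats lay above all MT rats. The Gal difference was -0.58 (SE 0.18, unadjusted P = 0.00880, adjusted p = 0.176 in limma). Npy1r, a neuropeptide Y receptor, differed by -0.26 (unadjusted P = 0.0388 in limma) and Pdyn, the dynorphin precursor, by -0.20 (unadjusted P = 0.173 in limma). Of 8 interneuron transcription factors 1 was lower at that threshold, Tfap2b, at -0.38 (SE 0.15, unadjusted P = 0.0337, adjusted p = 0.269 in limma), while Ptf1a, which specifies inhibitory neurons in development, differed by -0.41 (unadjusted P = 0.0841 in limma), Lbx1 by -0.19 and Pax2 by -0.13. Tfap2b was highest in NS rats 8 and 9, at 7.05 and 7.17. Without these rats of slide 3 the difference was -0.13 for Tfap2b, -0.10 for Npy1r, -0.17 for Ptf1a and -0.0088 for Lbx1, all with an unadjusted P above 0.05, and -0.50 for Gal. Scaling by the 75th percentile gave -0.036 for Ptf1a and 0.072 for Pax2.

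**Figure D5:**
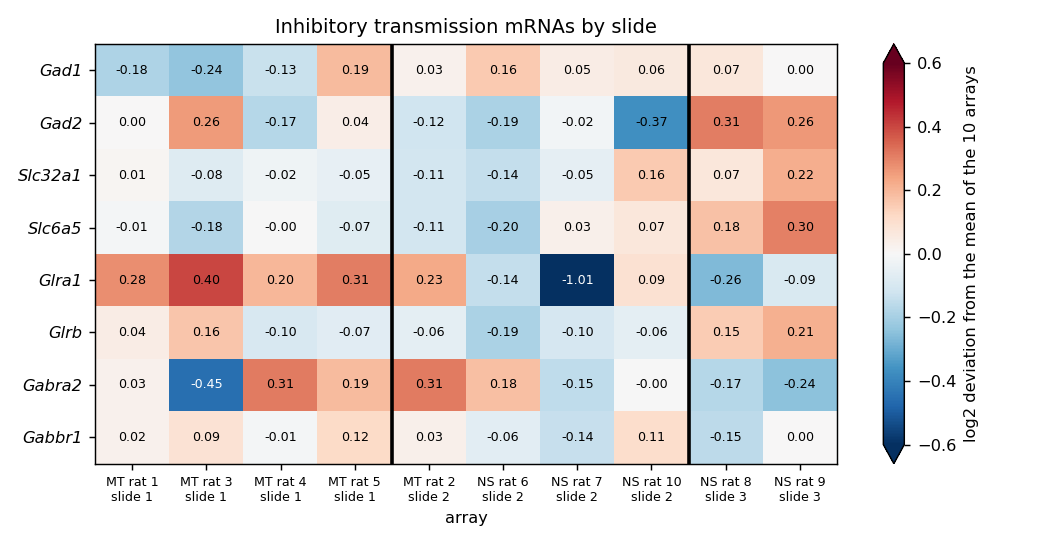
Deviation of each of the 8 inhibitory transmission mRNAs from its mean over the 10 arrays, in log2 units, with arrays ordered by slide and black lines between slides. NS rats 8 and 9 of slide 3 are at 0.31 and 0.26 for Gad2 and at 0.18 and 0.30 for Slc6a5, above every other array.

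The slide 3 rats differed from the other NS rats, in shares of the 8 mRNAs close to those of all mRNAs. Within the NS group, its 2 rats exceeded the 3 of slide 2 by 0.47 for Gad2, 0.30 for Glrb, 0.27 for Slc6a5, 0.18 for Glra1 and 0.15 for Slc32a1, while Gabra2 was 0.22 lower and Gad1 and Gabbr1 were each 0.05 lower. The median over all mRNAs was 0.12. Both slide 3 rats lay above the 8 other rats for Gad2 and Slc6a5, that is 2 of 8 mRNAs, where 24.1% of all mRNAs did so. They lay above the 3 NS rats of slide 2 for these and Glrb, 3 of 8, against 41.1% of all mRNAs. Whether the slide or the rats account for these differences cannot be told apart, since slide 3 held NS rats only. On slide 2, the value of MT rat 2 minus the mean of the 3 NS rats was 0.58 for Glra1 and 0.30 for Gabra2 and between -0.10 and 0.07 for the other 6.

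The spread within groups ranged over the 8 mRNAs from percentile 8.14 of all mRNAs for Gabbr1 to percentile 71.8 for Glra1, which was thus the noisiest of the 8 as well as the one with the largest difference. Gabra2 and Gad2 were at percentiles 64.3 and 60.2, and Slc32a1, Gad1, Slc6a5 and Glrb at 18.0, 26.7, 32.0 and 32.7. Of the other pairs of members, Gad2 and Glrb correlated with r = 0.83 (0.70 without slide 3), and Gabra2 and Glrb with -0.75 (-0.70 without slide 3).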

How the data were processed

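Total RNA of 5 MT and 5 NS lumbar enlargements was amplified with random primers along whole transcripts, labelled and hybridized to a rat lncRNA and mRNA array. The authors read the scanned arrays with Agilent Feature Extraction 11.0.1.1. For each spot they deposited a processed intensity with background subtracted, and the median signals of the spot and its background. The deposited value table holds log2 intensities that the authors quantile normalized. The deposited flags (0 or 1, no unit) mark outlier spots, saturation and spots well above background.

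Processed intensities were floored at 1 (none was below it), converted to log2, quantile normalized and averaged per accession without outlier spots. Probes stayed in the test where more than a share of 0.5 of their spots cleared background on 5 or more arrays. MT was compared with NS by limma 3.58.1 (R 4.3.3), with Benjamini-Hochberg adjustment over 20284 RNAs, and by exact two-sided permutation over 252 assignments. Replicates are separate rats. Normexp (offset 50) used the median signals of spot and background, as mean signals were not available. Symbols, positions and promoter windows are those of RefSeq (GRCr8), and 12486 of 13373 mRNAs had a symbol. The arrays were designed on another build, so positions are of genes. The rebuilt values correlated with the deposited log2 table with r between 0.993 and 0.999 across 24484 probes, and its column medians were 6.82 to 6.83.

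Alternatives were other scalings, background corrections, filters and variance models, the deposited table, slide blocks, the Student test of the methods and leaving out each rat. The genes named are the 8 members, up to 4 of each pathway list with the smallest P, and the 5 mRNAs most like Slc32a1. Marker and list genes are also named for their detection or repeated entries. Some items of the pathway lists are not reported here by name. Members and lists were chosen with earlier results of these data known. Python 3.11.15 with matplotlib 3.10.9 drew the figures, and the steps were tested on simulated arrays. Array number limits the precision.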

Additional observations from a re-analysis of the deposited data

Results flagged for a closer look

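In 2 of 70 groups of 5 rats checked over the named mRNAs, 1 rat lay apart from the other 4 by Dixon's criterion (a gap above 0.71 of the range), where chance gives about 1 in 20 groups. For Slc6a9, the glial glycine transporter, MT rat 3 read 14.76 and the other MT rats lay between 14.96 and 15.02. For Insyn1, a protein of the inhibitory postsynapse, NS rat 10 read 11.18 and the others of its group 10.83 to 10.93. None of the 8 member mRNAs had such a rat, NS rat 7 for Glra1 included.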

How the results depend on the processing

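No paired analysis was possible because the MT and NS rats share no replicate numbers. Over 23 alternatives, 0 of the 8 member mRNAs and 0 pathway mRNAs passed the adjusted p, and the Glra1 difference was 0.38 to 0.66 with an adjusted p of 0.121 to 1.00 in limma. Glra1 met the study's criteria (1 mRNA) without NS rats 8 and 9 of slide 3, and leaving out single rats gave 0 to 1 mRNA, with 1 without MT rat 4, NS rat 6, NS rat 9 or NS rat 10. Members with an unadjusted P below 0.05 numbered 0 with the slide as a fixed block, and 1 to 2 with single rats left out, 2 without MT rat 3, MT rat 5 or NS rat 6. For the pathway the count of 7 became 0 with the fixed block, 3 with the slide as a random block and 3 to 9 with single rats left out (3 without MT rat 1 or 2, 4 without MT rat 5, NS rat 8 or NS rat 9). Over all mRNAs, 31 passed the adjusted p, but 0 with either slide block, 2 without slide 3, 11 with no filter on dim probes, 109 with normexp, 133 with array weights, 90 with a variance trend or with probes well above background on all 10 arrays, 50 in the deposited table and 0 to 59 with single rats left out (0 without MT rat 1 or NS rat 9). The Student test of the methods gave 2288 mRNAs with an unadjusted P below 0.05 and 46 after Benjamini-Hochberg adjustment, Glra1 at 0.0193 and 0.212 as the 1 member.

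Some directions turned. Glrb was 0.0059 with normexp, 0.0095 in the deposited table, 0.071 with array weights, 0.059 with the fixed block, 0.0068 with the random block, 0.11 without slide 3 and -0.054 to 0.046 with single rats left out, and Gad2 was -0.089 to 0.079 with single rats left out. Glra3 was 0.10 with 75th percentile scaling, 0.031 with the fixed block and 0.0019 without slide 3. Slc6a9 was 0.0028 with array weights, 0.065 with the fixed block and 0.011 without slide 3. Slc6a11 was -0.17 and -0.034 with the fixed and the random block, and Wnk1 0.031 with the fixed block. Stk39 was -0.075 with array weights, -0.13 without slide 3 and -0.026 to 0.11 with single rats left out, and Pax2 0.072 with 75th percentile scaling. The cause was not tested. The fixed block takes its difference from the 1 MT and 3 NS rats of slide 2. Signal over background limits dim mRNAs such as Glra3.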
